A study of Homo sapiens with 7 samples.

Results

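The contacts that gene promoters made in Ishikawa cells, an endometrial adenocarcinoma line, were set against those in LNCaP cells, a prostate carcinoma line, gene by gene. Of 20162 protein-coding genes on chromosomes 1 to 22, X and Y, the 19229 on the autosomes were taken, and 16364 of them lie outside chromosomes 3, 10 and 12, which held 34.8% of the Ishikawa read pairs against 16.6% of the LNCaP read pairs. A gene's contact was the sum of read pairs over all loops between different anchors, 5 kb to 2 Mb apart, with an anchor on a window of 500 bp at any of its annotated start sites. This sum was scaled to read pairs per 1000000 of that line's kept loops (RPM) and compared as a difference of log2(value + 1), Ishikawa minus LNCaP, called a difference below.

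The study used H3K27ac HiChIP, an assay that ligates DNA ends lying close together in the nucleus and then keeps fragments bound by an antibody to acetylated lysine 27 of histone H3. The Ishikawa list combined 4 samples, 2 given the vehicle DMSO and 2 given 10 nM 17β-estradiol (E2), each for 1 h. The LNCaP list combined 2 samples for which the labels give no treatment. Each line is an established culture of 1 tumour, so the comparison is between these cultures and not between the organs. DpnII cut the Ishikawa chromatin and MboI the LNCaP chromatin, both at GATC, and the sonicator, the length of the reads and the depth changed with the line too, so none of these can be told apart from it. By the paper's account sequencing depth per sample was greater for Ishikawa, although the Ishikawa list held fewer read pairs after the filters. The paper describes hormone-depleted medium before estrogen inductions and does not say whether the LNCaP cells for HiChIP were kept in it. A difference in medium could thus not be told apart from the line either.

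Enhancers are stretches of DNA that bind transcription factors and raise transcription of a promoter that may lie far away on the same chromosome, and loops bring the pair together. H3K27ac marks promoters and enhancers that are active, so a loop in such a list needs both proximity and the mark at an end. Which enhancers carry the mark depends on the factors a cell holds, such as the androgen receptor, FOXA1 and HOXB13 in prostate luminal cells, and PAX8, SOX17 and EMX2 in epithelium that descends from the Müllerian duct.

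After the filters 162728 Ishikawa loops remained, with 1035188 read pairs in all, and 146350 LNCaP loops, with 1777734, so 1 read pair was worth 0.966 and 0.563 RPM. Both lists keep only loops of 3 or more read pairs, so a value of 0 means that no loop of the gene passed this limit, the authors' limit on the false discovery rate and the filters on anchors and span used here. The Ishikawa rows fall into 4 separately sorted parts of 89773 to 439779 read pairs, which nothing assigns to samples, and the LNCaP rows form 1 part. There are thus no replicates to compare between the lines and no test was made. The limit of 3 read pairs was met within each Ishikawa part before rows were summed, and once over the LNCaP list. A contact spread thinly over the parts could thus be lost in Ishikawa but kept in LNCaP. Values of 0 and low values are therefore not under the same limit in both lines. A gene was called where the difference was 2 or more in size and the higher list held 10 or more read pairs, and intervals on ratios (95%, exact) cover counting error only.

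Promoter contact differed widely between the lines. Contact was listed in both for 8322 genes (43.3%, Wilson interval 42.6 to 44%), in Ishikawa only for 3151 (16.4%), in LNCaP only for 3064 (15.9%) and in neither for 4692 (24.4%). Ishikawa was called higher at 3307 genes (17.2% of those compared) and LNCaP at 5617 (29.2%), while 10305 were not called. Outside chromosomes 3, 10 and 12 the counts were 2505 (15.3%) and 5056 (30.9%). Of 13137 genes with 10 or more read pairs in the higher list, a gene at 0 in the other list had to be called, and this was so for 2381 of the Ishikawa calls and 2629 of the LNCaP calls. Among genes with contact in both lists, 11.1% were called higher in Ishikawa and 35.9% in LNCaP.

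Where both lists held contact, the median was 20.3 RPM in Ishikawa and 48.4 in LNCaP, with a median difference of -1.11 and quartiles of -2.70 and 0.56. Scaling to an equal median over these genes moved their median difference to 0.08 and the share of calls that went to Ishikawa from 37.1% to 49.8%. Spearman's rho between the lines was 0.313 across all genes, against 0.638 to 0.813 between pairs of Ishikawa parts. Across the 8322 genes with contact in both lines it was 0.0637, against 0.589 to 0.732 between pairs of parts, and some of these genes share anchors. The same call rule called 3.09 to 9.27% of genes between pairs of Ishikawa parts and 46.4% between the lines. The parts held 89773 to 439779 read pairs, against 1035188 in the whole Ishikawa list and 1777734 in the LNCaP list. Fewer genes could thus reach the read pairs that a call needs, so the shares between parts are no baseline for the 46.4%. The parts also come from the same line and are assigned to no sample. All 4 parts were below LNCaP for 5594 of the 5617 genes called higher there, and all 4 were above it for 1816 of the 3307 genes called higher in Ishikawa. The parts add up to the Ishikawa value behind each call, so these counts are no separate support for the calls. For 2629 of the 5617 the Ishikawa value was 0, and every part had to be 0 as well.

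**Figure D1:**
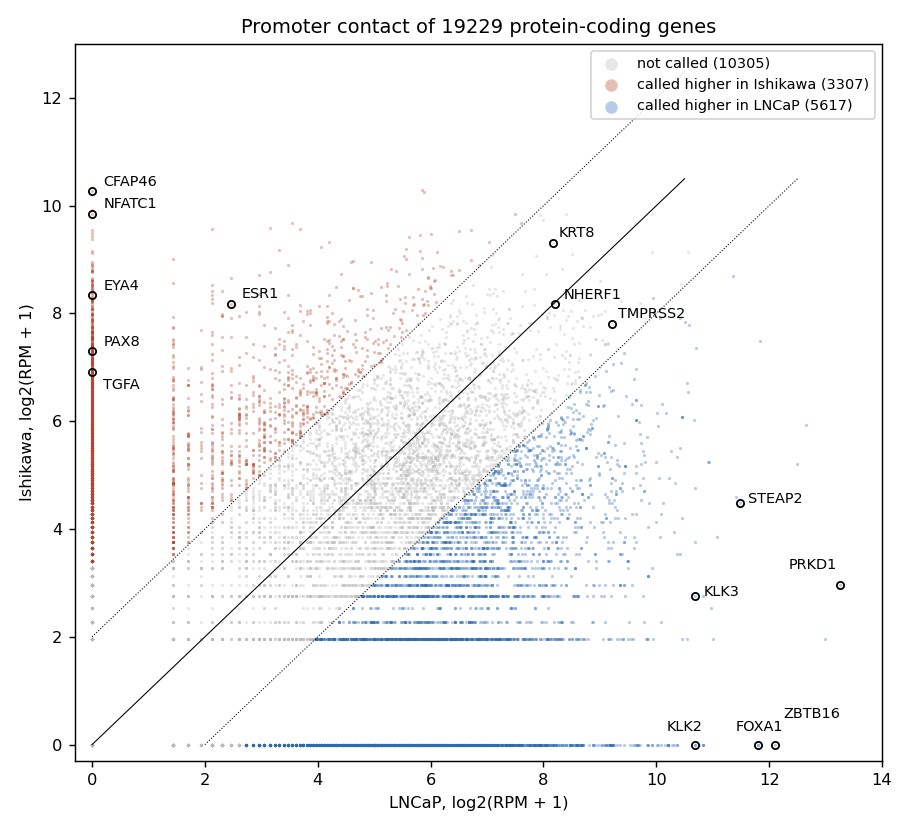
Promoter contact of each of 19229 autosomal protein-coding genes, as log2(RPM + 1) in LNCaP (horizontal) and Ishikawa (vertical); points are genes, coloured by call, the solid line marks equal values and the dotted lines a difference of 2. Genes called higher in LNCaP (5617) outnumber those called higher in Ishikawa (3307), and prostate genes such as KLK3 and STEAP2 lie far to the right while PAX8, TGFA and ESR1 lie to the left.

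Genes that define prostate luminal cells had their contacts in LNCaP. Of 11 such genes, 9 were called higher in LNCaP (81.8%, against 29.2% of all genes) and none in Ishikawa (against 17.2%). The median difference was -6.68 against 0 over all genes, and outside chromosomes 3, 10 and 12, LNCaP was called higher at 8 of 10. KLK3 encodes prostate-specific antigen, and KLK2 a related secreted protease that activates it. Their promoters lie on the same LNCaP anchor, chr19:51337325-51414040 (hg19), which also covers a start site of KLK4 and carried 2936 read pairs to 61 partners. In Ishikawa KLK2 had 0 read pairs, KLK3 had 6 and KLK4 had 27. The strongest LNCaP partner of this anchor, with 1509 read pairs, was chr19:51295214-51310103, 62.2 kb before the start of KLK2 and over exons of ACP4 and SMIM47.

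SLC45A3, which encodes the prostate membrane protein prostein, had 2250 read pairs in LNCaP and 0 in Ishikawa. The homeobox gene HOXB13, an androgen receptor partner in prostate cells, shared its LNCaP anchor with PRAC1 and PRAC2, and each had 3243 read pairs in LNCaP and 0 in Ishikawa. For HOXB13, 1364 of them went to an intergenic partner 19.2 kb upstream, chr17:46820367-46830262. STEAP2, a metalloreductase of the prostate, had 5077 read pairs in LNCaP and 22 in Ishikawa, a ratio of scaled values of 134 (88.7 to 215). ACP3, prostatic acid phosphatase, had 1228 and 49, and the ion channel gene TRPM8 had 100 and 0. No Ishikawa part held more than 16 read pairs for any of these genes.

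TMPRSS2 and FOLH1 were the prostate luminal genes not called. TMPRSS2, a membrane protease under androgen control, had 1056 read pairs in LNCaP and 231 in Ishikawa (difference -1.41, ratio of LNCaP to Ishikawa 2.66, 2.31 to 3.08), and the Ishikawa parts held 53, 29, 66 and 83. FOLH1, prostate-specific membrane antigen, had no loop in either list. Many LNCaP anchors here were wide: 76.7 kb at KLK2 and KLK3, 26.2 kb at SLC45A3 and 21.7 kb at HOXB13. With every anchor set to 4 kb around its middle, the list's median became 0 and members that turned towards Ishikawa included KLK3, STEAP2 and KLK4 (2.76, 4.48 and 4.76). KLK4 was also at 4.76 with the 5′ end as the only start site.

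The wider androgen response list behaved alike. Of 39 genes, 29 were called higher in LNCaP (74.4%, against 29.2% of all genes) and 3 in Ishikawa (7.69%, against 17.2%). The median difference was -4.02, and outside chromosomes 3, 10 and 12 the counts were 27 and 3 of 36. ZBTB16, a zinc finger repressor, had 7849 read pairs in LNCaP and 0 in Ishikawa, and 1872 of them joined 2 stretches within the gene itself. FKBP5, a co-chaperone of steroid receptors, had 1278 and 9 (ratio 82.7, 43.4 to 181), and its strongest LNCaP partner lay within the gene at chr6:35550367-35562041, 140 kb from its 5′ end. TPD52, a vesicle trafficking gene, had 1655 and 22. The exceptions were INPP4B, a lipid phosphatase, with 15 read pairs in LNCaP and 169 in Ishikawa, PIAS1, a SUMO ligase, with 18 and 86, and KRT19, a simple epithelial keratin, with 0 and 57. With the 5′ end as the only start site PIAS1 turned towards LNCaP (-3.48). INPP4B contact was present in all 4 Ishikawa parts (47, 27, 27 and 68 read pairs).

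Müllerian epithelial genes ran the other way. Of 8 genes, 5 were called higher in Ishikawa (62.5%, against 17.2% of all genes) and none in LNCaP (against 29.2%). The median difference was 3.65, and outside chromosomes 3, 10 and 12, Ishikawa was called higher at 4 of 7. After subtraction of the same difference taken over other loops within 1 Mb (the local difference), the list's median was 1.21, against -0.76 over all genes. PAX8, a paired box factor of Müllerian, thyroid and renal epithelium, had 162 read pairs in Ishikawa (44, 16, 62 and 40 in the parts) and 0 in LNCaP. Its strongest partner, with 30 read pairs, was chr2:113952980-113972140 over the neighbouring gene PSD4. EMX2, a homeobox gene of the uterus, had 103 and 0, and SOX17, an HMG box factor of endometrial glands, had 27 and 0. MSX1 had 72 read pairs in Ishikawa and 9 in LNCaP, and 54 of the 72 joined it to an intron of STX18, 352 kb away. WT1 had 13 and 0. HOXA10, a homeobox gene of the uterus, had 88 and 68 and was not called, and LHX1 and HOXA11 had no loop in either list.

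In a wider endometrial and Müllerian list, 8 of 21 genes (38.1%, against 17.2% of all genes) were called higher in Ishikawa and none (against 29.2%) in LNCaP. Another 8 had no loop in either list. FOXJ1, the regulator of motile cilia, had 204 read pairs in Ishikawa and 0 in LNCaP, with 32 to 79 in each part. MUC16, the gene of the CA125 antigen, had 116 and 0, the secreted factor WNT7A 62 and 0, PAX2 46 and 0, GATA6 36 and 0, and SOX9 79 and 6. Loops of all kinds were also denser in Ishikawa around EMX2, PAX2 and SOX9: within 1 Mb the same difference taken over all loops was 4.67, 2.90 and 3.73. At PAX8 it was -1.45. With anchors of 4 kb SOX9 turned towards LNCaP (-2.13).

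**Figure D2:**
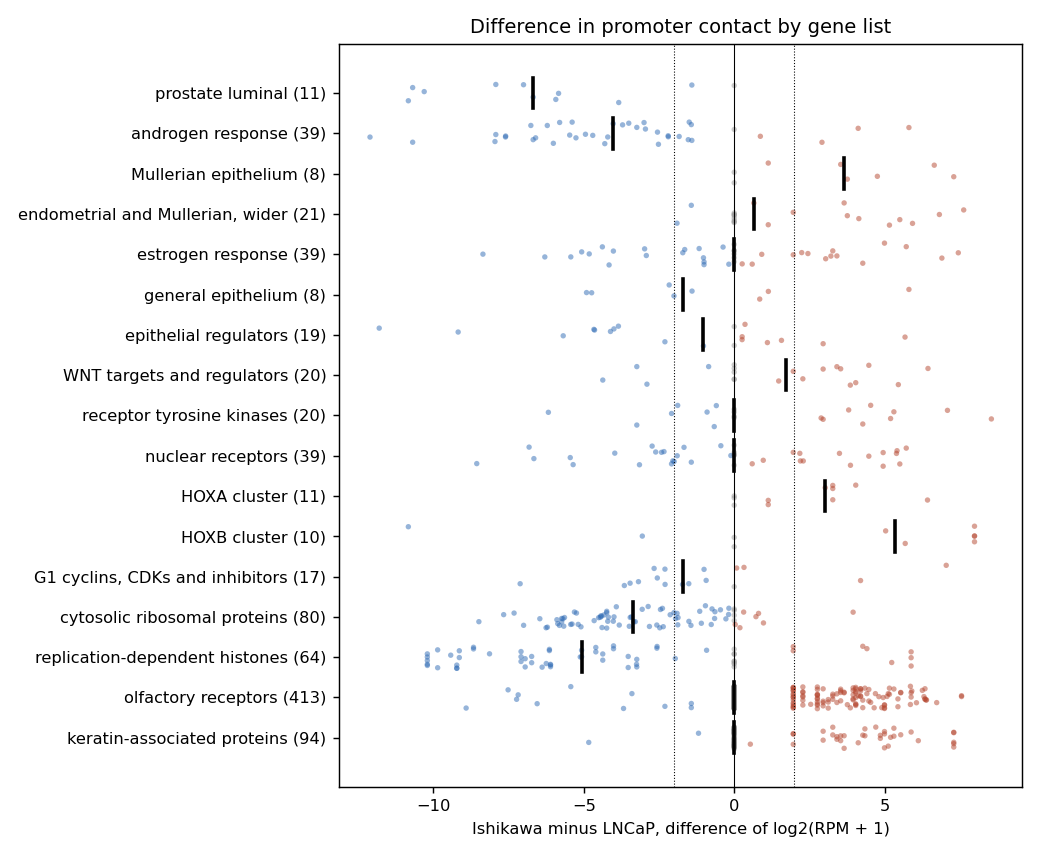
Difference in promoter contact (Ishikawa minus LNCaP, log2(RPM + 1)) for each gene of 17 lists; points are genes, black bars the list medians, numbers in brackets the genes found, and dotted lines the limits of a call. Prostate luminal and androgen response genes lie to the left (medians -6.68 and -4.02) and Müllerian and HOXB genes to the right (3.65 and 5.36).

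The study treated cells with E2, and of 39 genes of the estrogen response 10 were called higher in each line, with a median of 0. That is 25.6% in each direction, against 17.2% of all genes called higher in Ishikawa and 29.2% in LNCaP. ESR1, which encodes estrogen receptor α, had 299 read pairs in Ishikawa (74, 25, 94 and 106 in the parts) and 8 in LNCaP, a ratio of 64.2 (32.2 to 150). Its strongest Ishikawa link, with 35 read pairs, joined a start site at chr6:152119764-152143515 to chr6:151995849-152006675 in an intron of the gene. TGFA, a ligand of the epidermal growth factor receptor, had 123 and 0, and 22 of the 123 joined it to its own intron at chr2:70710136-70725808. IGFBP4, an IGF binding protein, had 180 and 0. PEG10, an imprinted gene of retroviral origin, had 10 and 0.

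Other estrogen response genes had their contacts in LNCaP. NRIP1, a corepressor of nuclear receptors, had 580 read pairs there and 0 in Ishikawa. MYC had 2183 and 44 (ratio 28.9, 21.4 to 39.9). In LNCaP its strongest partner, with 323 read pairs, lay 718 kb upstream at chr8:128021704-128037912, and in Ishikawa, with 23, it lay 138 kb downstream at chr8:128870416-128900251. XBP1, a factor of the unfolded protein response, had 537 and 14, and TFF1, a secreted trefoil peptide, had 58 and 0. GREB1, a cofactor of estrogen receptor α, had 670 and 124 and was not called (difference -1.65), and 8 of its 10 Ishikawa partners overlapped an LNCaP partner. PGR, the progesterone receptor gene, had 3 read pairs in Ishikawa and 0 in LNCaP.

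Both lines are epithelial, yet the epithelial genes split. Of 8 general epithelial genes 4 were called higher in LNCaP (50%, against 29.2% of all genes) and 1, KRT19, in Ishikawa (12.5%, against 17.2%). CDH1, which encodes E-cadherin, had 1055 read pairs in LNCaP and 22 in Ishikawa (ratio 27.9, 18.3 to 44.8), and CLDN7, a tight junction protein, had 981 and 18. KRT8 and KRT18, the partner keratins of simple epithelium on chromosome 12, had contact in both: 656 read pairs in Ishikawa and 512 in LNCaP for KRT8, and 266 and 253 for KRT18. For KRT8, 14 of 22 Ishikawa partners overlapped an LNCaP partner.

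Of 19 transcription factors and splicing factors that regulate epithelium, 8 were called higher in LNCaP (42.1%, against 29.2% of all genes). In Ishikawa it was 1 (5.26%, against 17.2%), and outside chromosomes 3, 10 and 12 the counts were 7 in LNCaP and 0 in Ishikawa, of 16. FOXA1, a pioneer factor for steroid receptors, had 6348 read pairs in LNCaP and 0 in Ishikawa. Its LNCaP anchor, 49.6 kb wide, also held a start site of TTC6, and 1896 read pairs joined it to a region over exons of MIPOL1, chr14:37872330-37925888, 166 kb away. SPDEF, an ETS factor of secretory cells, had 1028 and 0, GRHL2 3447 and 38, and EHF 2875 and 66. GATA2, an androgen receptor partner, had 1039 and 41. ESRP1, a splicing factor of epithelial cells, had 147 in LNCaP and 103 in Ishikawa and was not called (difference 0.26 after scaling). TP63, the basal cell factor, was the gene called higher in Ishikawa, with 52 read pairs there and 0 in LNCaP. With anchors of 4 kb, GRHL2 and EHF turned towards Ishikawa (4.71 and 6.02).

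**Figure D3:**
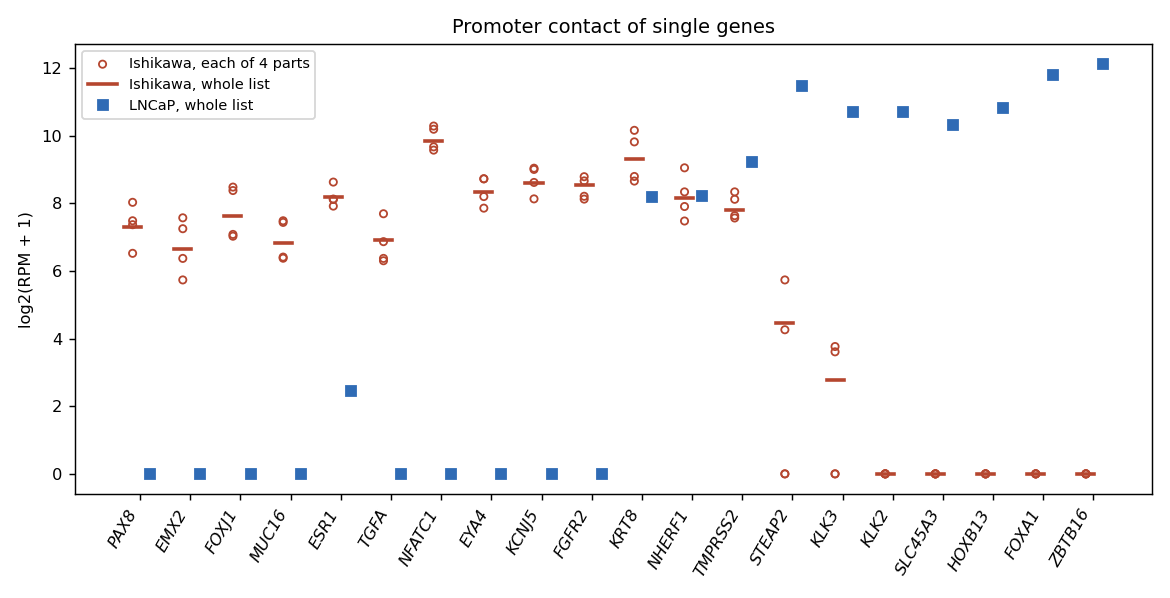
Promoter contact of 20 genes as log2(RPM + 1); open circles are the 4 parts of the Ishikawa list, each scaled to its own read pairs, red bars the whole Ishikawa list and blue squares the LNCaP list. The Ishikawa parts of PAX8, FOXJ1, ESR1 and NFATC1 all lie above LNCaP, and those of KLK2, SLC45A3, HOXB13, FOXA1 and ZBTB16 are all at 0.

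In brackets from here on, Ishikawa read pairs come first and LNCaP read pairs second. Among signalling genes, WNT pathway targets and regulators leaned to Ishikawa, with 7 of 20 called higher there (35%, against 17.2% of all genes). In LNCaP it was 3 (15%, against 29.2%), and the median was 1.72 (0.81 after subtraction of the local difference). The WNT effectors LEF1 and TCF7L2 had 89 and 249 read pairs in Ishikawa and 0 and 8 in LNCaP. RNF43, a ubiquitin ligase that removes WNT receptors, had 6 in Ishikawa and 248 in LNCaP, and AXIN2, a feedback inhibitor, had 3 and 50. Of 20 receptor tyrosine kinases, 8 were called higher in Ishikawa (40%, against 17.2% of all genes) and 3 in LNCaP (15%, against 29.2%). FGFR2, a receptor for fibroblast growth factors on chromosome 10, had 387 and 0, EPHA2, an ephrin receptor, 140 and 0, and MET, the hepatocyte growth factor receptor gene, 37 and 0. ERBB2 had 117 in Ishikawa and 857 in LNCaP (ratio of LNCaP to Ishikawa 4.27, 3.51 to 5.22), while ERBB3 (276 and 752) and IGF1R (126 and 406) were not called.

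Of 39 nuclear receptor genes 12 were called higher in Ishikawa (30.8%, against 17.2% of all genes) and 13 in LNCaP (33.3%, against 29.2%). The retinoic acid receptor gene RARG had 341 read pairs in Ishikawa and 12 in LNCaP, and PPARA, a fatty acid receptor gene, had 116 and 3, though with the 5′ end as the only start site it turned towards LNCaP (-1.43). RXRA, the shared partner of many of these receptors, had 0 in Ishikawa and 669 in LNCaP. VDR, the vitamin D receptor gene on chromosome 12, had 310 and 107, but loops of all kinds within 1 Mb differed by 3.25, more than its own 2.30. Of 17 genes for G1 cyclins, their kinases and inhibitors, 8 were called higher in LNCaP (47.1%, against 29.2% of all genes). In Ishikawa it was 2 (11.8%, against 17.2%), CDK6 (136 and 0) and CCND2 (18 and 0). CDKN2D had 0 in Ishikawa and 245 in LNCaP, and CDK2 had 295 and 404 and was not called (difference 0.33 after scaling). Of 14 AP-1 and immediate-early genes, 6 (42.9%, against 29.2% of all genes) were called higher in LNCaP, among them IER2 (13 and 528) and EGR1 (3 and 173). In Ishikawa 2 were called (14.3%, below the 17.2% of all genes), IER3 (96 and 0) and EGR3 (27 and 0).

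Homeobox clusters, which set position along the body axis, differed along their length. In the HOXB cluster 6 of 10 genes were called higher in Ishikawa (60%, against 17.2% of all genes) and 2 in LNCaP (20%, against 29.2%). The median was 5.36. HOXB3 to HOXB8 shared an Ishikawa anchor of 50.3 kb, chr17:46647135-46697467, with 262 read pairs, and in LNCaP HOXB4, HOXB5, HOXB7 and HOXB8 were at 0. HOXB13, at the far end, was the reverse (0 and 3243). In the HOXA cluster 4 of 11 genes (36.4%, against 17.2% of all genes) were called higher in Ishikawa and none (against 29.2%) in LNCaP. Among the 4 were HOXA7 (88 and 0) and HOXA5 (16 and 0). In the HOXD cluster 3 of 9 (33.3%, against 17.2%) were called higher in Ishikawa, HOXD3, HOXD8 and HOXD9, and none (against 29.2%) in LNCaP. No HOXD gene had a loop in LNCaP. Loops of all kinds around HOXD were denser in Ishikawa too, with a median local difference of 5.89, and after its subtraction the list's median was -5.89 and HOXD9 was at -0.53. The HOXC cluster, on chromosome 12, divided. Of its 9 genes 2 (22.2%, against 17.2%) were called higher in Ishikawa and 3 (33.3%, against 29.2%) in LNCaP, near the shares of all genes. HOXC8 (43 and 0) and HOXC12 (41 and 0) were higher in Ishikawa. HOXC5 (0 and 170), HOXC13 (0 and 116) and HOXC9 (23 and 178) were higher in LNCaP. With the 5′ end as the only start site HOXC9 turned towards Ishikawa (4.54). Since neighbours share anchors, these genes are not separate measurements.

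Cytosolic ribosomal protein genes, which every cell transcribes, leaned to LNCaP. Of 80 genes (paralogs included) 51 were called higher in LNCaP (63.8%, against 29.2% of all genes). The testis paralog RPL10L (15 and 0) was the 1 called higher in Ishikawa (1.25%, against 17.2%), though it was at -3.15 after subtraction of the local difference. The median difference was -3.38, against 0 over all genes, and among those with contact in both lists it was -2.70, against -1.11. Contact was listed for 93.8% in LNCaP and 73.8% in Ishikawa. RPL23A had 1223 read pairs in LNCaP and 13 in Ishikawa, RPL26 637 and 0, and RPS2 603 and 35. RPS3 (42 and 63), RPS7 (42 and 43) and RPS26 (233 and 391) were not called, with differences after scaling of 0.19, 0.72 and 0.03. Scaling to an equal median over genes in both moved the list's median to -2.19.

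Gene families set in clusters also parted, and these lists were added after their values had been seen. Of 64 replication-dependent histone genes, which supply histones in S phase, 46 were called higher in LNCaP (71.9%, against 29.2% of all genes). In Ishikawa it was 6 (9.38%, against 17.2%), and the median was -5.07. H2AC13, H2AC14, H2BC13, H2BC14 and H3C10 each had 2093 read pairs in LNCaP through a shared anchor and 0 in Ishikawa, and with anchors of a single gene alone the list's median was 0. Of 246 zinc finger genes on chromosome 19, most of them KRAB repressors of transposable elements, 86.2% had contact in LNCaP and 42.3% in Ishikawa. Over all genes it was 59.2% and 59.7%. LNCaP was called higher at 138 of the 246 (56.1%, against 29.2% of all genes) and Ishikawa at 10 (4.07%, against 17.2%). The largest difference towards LNCaP was at ZNF552 (0 and 965). Counting only partners without a promoter, the median of these zinc finger genes was 0.

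Families known mainly from other tissues were seldom called higher in LNCaP. Of 413 olfactory receptor genes 28.1% had contact in Ishikawa and 2.91% in LNCaP, against 59.7% and 59.2% of all genes. Ishikawa was called higher at 70 of them (16.9%, against 17.2% of all genes) and LNCaP at 8 (1.94%, against 29.2%). OR2T4 and OR14C36 had 194 read pairs each in Ishikawa and 0 in LNCaP. Among those called higher in LNCaP were OR51E2 (3 and 1042) and OR51E1 (0 and 324), olfactory receptor genes known for their transcription in prostate. Of 94 keratin-associated protein genes, which build hair, 39.4% had contact in Ishikawa and 3.19% in LNCaP. Ishikawa was called higher at 28 (29.8%, against 17.2% of all genes) and LNCaP at 1 (1.06%, against 29.2%). KRTAP1-1, KRTAP1-3, KRTAP2-1, KRTAP2-2 and KRTAP2-3 each had 162 and 0. Equal counts at genes of a cluster can come from shared anchors, so these are not taken as separate measurements. Of 53 clustered protocadherin genes, which label neurons, 16 (30.2%, against 17.2%) were called higher in Ishikawa. In LNCaP it was 2 (3.77%, against 29.2%). Ishikawa anchors covered 18.9% of autosomal bases and LNCaP anchors 5.71%, and the part of this coverage in these counts was not tested.

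Markers of other cell types were also counted. Of 10 neuroendocrine, 6 blood, 5 neuronal, 5 liver and 5 muscle genes, 3, 2, 4, 2 and 1 had contact in Ishikawa and 1, 1, 0, 1 and 0 in LNCaP. Of these 1, 1, 2, 1 and 1 were called higher in Ishikawa, and 1 blood gene, CD68 (0 and 132), in LNCaP. The Ishikawa calls were 10, 16.7, 40, 20 and 20% of the members, against 17.2% of all genes. The member with the most read pairs was the neuroendocrine enolase gene ENO2 on chromosome 12 (513 and 41). The neuronal genes RBFOX3 and GAD1 had 33 and 28 read pairs in Ishikawa and 0 in LNCaP. Of 15 mesenchymal genes 3 (20%, against 17.2% of all genes) were called higher in Ishikawa, CDH2 (76 and 0), LOX (20 and 0) and ZEB2 (11 and 0), and 2 in LNCaP, SNAI2 (0 and 66) and SNAI1 (0 and 10). After subtraction of the local difference CDH2 was at -0.49 and ZEB2 at -3.75.

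The genes with the largest differences towards Ishikawa outside chromosomes 3, 10 and 12 were led by NFATC1, a calcium-regulated transcription factor, with 955 read pairs to 28 partners (218, 105, 297 and 335 in the parts) and 0 in LNCaP. Its strongest link, with 84 read pairs, ran between start sites within the gene, from chr18:77247190-77259906 to chr18:77261369-77286382. AL590452.1, on chromosome 1 near PDE4DIP, had 749 and 0, and DLGAP2, a synaptic scaffold gene that shares an anchor with ERICH1, had 577 and 0. Then came SMIM6 (491 and 0), FADS6 (454 and 0), ITGB4 (354 and 0), which encodes integrin β4 of hemidesmosomes, and SLC39A11 (352 and 0), a zinc transporter gene. These last 4 lie between 70642088 and 73753899 on chromosome 17, where loops of all kinds were denser in Ishikawa by 1.66 to 2.60.

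TP53AIP1, a p53 target in the mitochondrion, and KCNJ5, a potassium channel gene, lie side by side on chromosome 11 and had 404 and 399 read pairs in Ishikawa and 0 in LNCaP. Their promoters contacted each other with 164 read pairs, the anchors being chr11:128753852-128777839 at KCNJ5 and chr11:128788287-128808187 at TP53AIP1. Around this pair loops of all kinds hardly differed (0.03 and 0.02). EYA4, a coactivator of sine oculis homeobox factors, had 335 and 0 (113, 38, 55 and 129 in the parts), and 52 of these joined a start site to an intron of EYA4 at chr6:133648808-133669735. The local difference there was -0.36. Nearby loop density thus went with the contact at NFATC1 (5.22) and DLGAP2 (3.95), and not at TP53AIP1, KCNJ5 and EYA4. Over genes with contact in either list, Spearman's rho between the difference and the local difference was 0.279 (0.223 outside chromosomes 3, 10 and 12).

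Towards LNCaP the largest differences were those of ZBTB16, then TTC6 with FOXA1, and PRAC1 with HOXB13, followed by PBOV1, a gene of prostate and breast cancer, with 3077 read pairs in LNCaP and 0 in Ishikawa. KLK2, GULP1 (0 and 2918), an adaptor for engulfment of dead cells, CARTPT (0 and 2348), a neuropeptide gene, MIA3 (0 and 2341), a secretory pathway gene that shares an anchor with AIDA, and SLC45A3 came next. PRKD1, a kinase gene, had the most read pairs of any gene in the LNCaP list, 17318, and 7 in Ishikawa. Of the 17318, 3007 joined 2 stretches inside the gene, chr14:30188431-30239088 and chr14:30254697-30299961. When the annotated 5′ end was the only start site, PRKD1 and GULP1 had a difference of 0.

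On chromosomes 3, 10 and 12 the largest differences towards Ishikawa were at CFAP46, a cilium gene (1277 and 0), MECOM, a zinc finger oncogene (1008 and 0), and MUC4, a membrane mucin gene (776 and 0), with local differences of 2.48, 3.22 and 2.70. Those towards LNCaP were at TBX3, a T-box repressor (0 and 2033), LRIG1, an inhibitor of ERBB receptors (0 and 1454), and MME, the neprilysin gene (0 and 1368). For TBX3, 1000 of 2033 read pairs went to an intergenic partner 1073 kb upstream, chr12:116186785-116203293. With the 5′ end as the only start site CFAP46 and MME had a difference of 0.

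Among genes outside chromosomes 3, 10 and 12 with a difference under 0.5 in size, 5 with the highest contact in the lower list are given. NHERF1, a scaffold of apical membranes, had 297 read pairs in Ishikawa and 523 in LNCaP (ratio 0.975, 0.843 to 1.13). KCTD2, which shares an anchor with ATP5PD, had 266 and 483 (0.946, 0.811 to 1.10), and 14 of its 24 Ishikawa partners overlapped an LNCaP partner. LLGL2, a polarity gene, had 271 and 635, MRPL58, a mitochondrial ribosome gene, 260 and 517, and AP3D1, an adaptor of vesicle sorting that shares an anchor with DOT1L, 255 and 611. The genes other than AP3D1 lie on chromosome 17, where loops of all kinds were denser in Ishikawa by 1.97 to 2.31.

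Chromosomes 10 and 12 stood apart from the rest. On chromosome 12 Ishikawa was called higher at 33.7% of genes and LNCaP at 14.6%, and on chromosome 10 at 29.2% and 15.9%. On chromosome 3, the other one with many Ishikawa read pairs, it was 21.7% and 26.9%, and over these 3 together 28% and 19.6%. The median difference over genes with contact in both was 0.35 on chromosome 10 and 0.15 on chromosome 12, and below 0 on each of the other 20 autosomes, lowest on chromosome 6 (-1.72) and chromosome 9 (-1.72). Chromosomes 10 and 12 held 11.3% and 14.2% of the Ishikawa read pairs, against 3.60% and 4.84% in LNCaP. The part of this density in the calls was not tested.

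**Figure D4:**
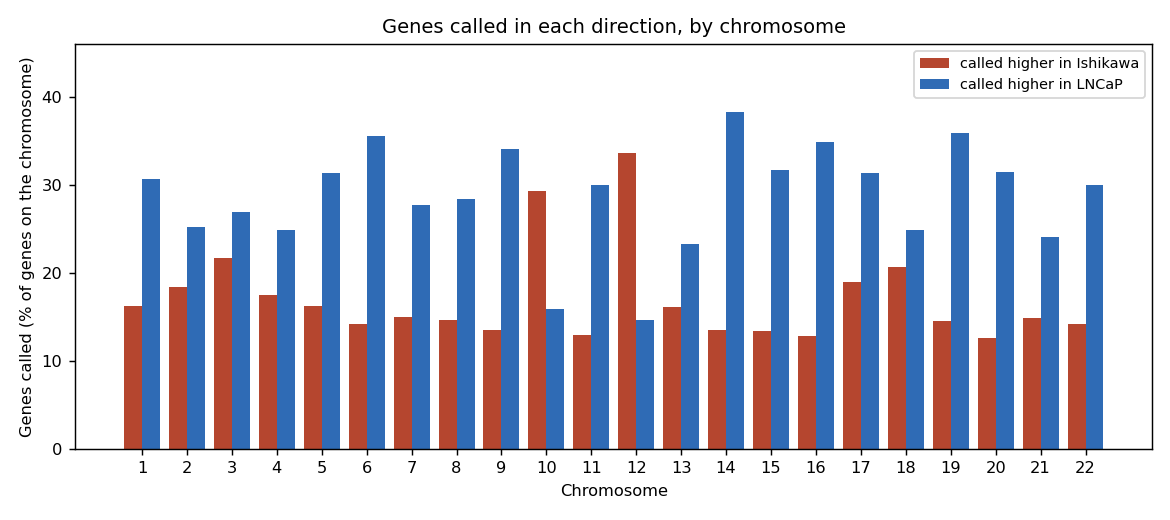
Share of the protein-coding genes on each autosome called higher in Ishikawa (red) or in LNCaP (blue), in percent. Red exceeds blue on chromosomes 10 (29.2 against 15.9) and 12 (33.7 against 14.6), and blue exceeds red on all others.

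The contacts differed in kind as well as in number. Promoters lay on 29.5% of LNCaP anchors and 16.5% of Ishikawa anchors, and promoter loops held 62.7% and 37.1% of read pairs. Links from promoter to promoter made up 36.2% of the promoter read pairs in LNCaP and 23.3% in Ishikawa. The median promoter loop spanned 123 kb in LNCaP and 43.9 kb in Ishikawa. Loops of 100 to 500 kb held 31.4% of LNCaP promoter read pairs and 16.6% of those of Ishikawa, and loops of 5 to 20 kb 23.3% and 39.1%. A gene with contact had a median of 9 partners in LNCaP and 4 in Ishikawa.

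For genes in contact in both lines, most listed partners did not overlap a partner of the same gene in the other line. The lists differ in depth, anchor width and partners per gene. Sharing was not counted between Ishikawa parts, so these shares have no baseline. Of 52553 Ishikawa links from gene to partner, 25.5% had a partner that overlapped one of the same gene in LNCaP. Of 115275 LNCaP links, 13.2% did so in Ishikawa, although 58.0% of their partners overlapped some Ishikawa anchor. Of the 8322 genes, 5114 (61.5%) shared 1 or more partners, and 2860 when the overlap had to cover 50% of both anchors. ERBB3 shared 15 of 25 Ishikawa partners, LLGL2 16 of 19 and MYC 3 of 4. ESR1 shared 0 of 23, but only 2 LNCaP partners were listed for it.

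Promoter sequence differed between the called groups. Promoters rich in CpG belong mostly to widely used genes, and those poor in CpG, often with a TATA box, to tissue-restricted ones. In the 300 bases at the 5′ end (250 before and 50 after, GRCh37) the median number of CpG was 18 over all genes, 13 in genes called higher in Ishikawa and 23 in those called higher in LNCaP. Of 11010 genes with 15 or more CpG, 75.4% had contact in LNCaP and 66.6% in Ishikawa, and 37.2% were called higher in LNCaP and 14.1% in Ishikawa. Of 8219 genes with fewer, 37.5% and 50.3% had contact, and 18.5% and 21.3% were called. The order of the lines in listed contact and in calls thus turned with CpG content. Among genes with contact in both lists it did not turn. There the median difference was -1.16 with 15 or more CpG and -0.93 with fewer. Ishikawa anchors covered 18.9% of autosomal bases and LNCaP anchors 5.71%, and the part of this coverage in the turn was not tested.

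**Figure D5:**
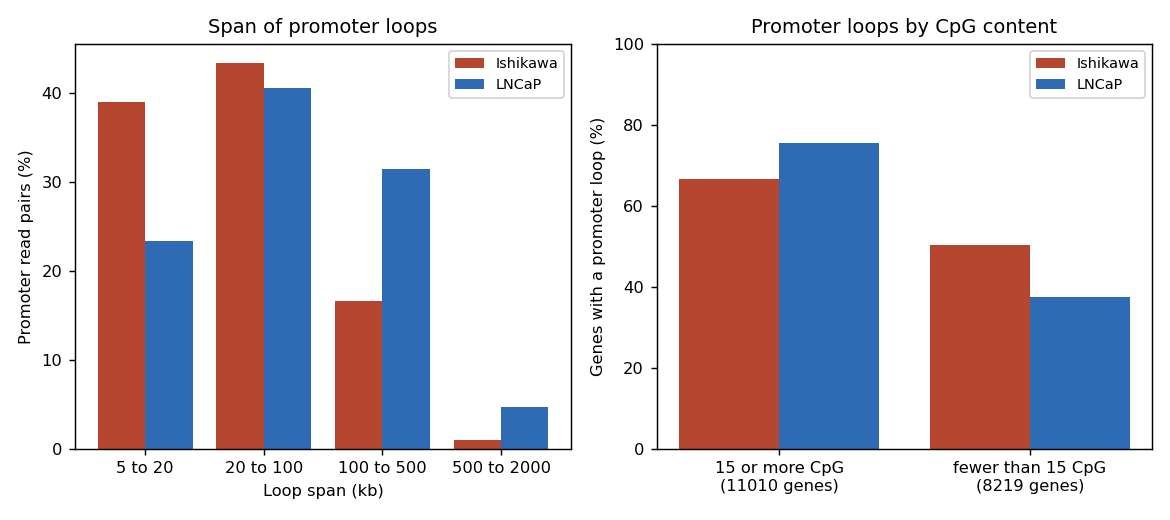
Left, share of promoter read pairs (percent) by loop span in kb; right, share of genes with a promoter loop (percent) for genes with 15 or more CpG and fewer than 15 CpG in 300 bases at the 5′ end; red Ishikawa, blue LNCaP. Short loops weigh more in Ishikawa (39.1% at 5 to 20 kb against 23.3%), and CpG-poor promoters more often had a loop in Ishikawa (50.3% against 37.5%).

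The promoters below, 250 bases that end just before the RefSeq start (GRCh38.p14), show both classes: KLK3 and KLK2 share an LNCaP anchor, SLC45A3 and RPS9 had loops in LNCaP alone, and PAX8 and KRTAP1-1 in Ishikawa alone. Capitals mark matches, on either strand, to the TATA box (TATAAA), the site of SP and KLF factors (GGGCGG), an arm of the androgen receptor palindrome (AGAACA) and the site of forkhead factors (TGTTTAC).
KLK3: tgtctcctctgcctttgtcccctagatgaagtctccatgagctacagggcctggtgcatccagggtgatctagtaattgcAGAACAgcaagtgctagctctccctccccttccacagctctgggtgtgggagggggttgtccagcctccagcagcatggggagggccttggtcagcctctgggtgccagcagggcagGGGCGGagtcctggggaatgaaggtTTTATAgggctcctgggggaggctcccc
KLK2: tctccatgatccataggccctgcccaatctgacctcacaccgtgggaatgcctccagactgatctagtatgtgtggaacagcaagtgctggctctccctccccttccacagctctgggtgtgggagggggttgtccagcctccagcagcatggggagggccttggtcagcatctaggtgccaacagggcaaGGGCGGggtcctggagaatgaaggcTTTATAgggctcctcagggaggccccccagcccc
SLC45A3: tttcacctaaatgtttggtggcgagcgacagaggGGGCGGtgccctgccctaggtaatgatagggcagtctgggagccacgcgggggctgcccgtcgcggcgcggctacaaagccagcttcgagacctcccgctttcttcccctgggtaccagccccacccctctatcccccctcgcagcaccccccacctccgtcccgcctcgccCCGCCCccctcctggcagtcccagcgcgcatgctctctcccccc
RPS9: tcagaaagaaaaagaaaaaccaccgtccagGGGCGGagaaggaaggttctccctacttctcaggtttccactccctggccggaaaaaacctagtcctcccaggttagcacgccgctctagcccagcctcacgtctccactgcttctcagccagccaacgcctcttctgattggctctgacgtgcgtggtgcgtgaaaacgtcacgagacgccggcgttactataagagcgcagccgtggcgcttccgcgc
PAX8: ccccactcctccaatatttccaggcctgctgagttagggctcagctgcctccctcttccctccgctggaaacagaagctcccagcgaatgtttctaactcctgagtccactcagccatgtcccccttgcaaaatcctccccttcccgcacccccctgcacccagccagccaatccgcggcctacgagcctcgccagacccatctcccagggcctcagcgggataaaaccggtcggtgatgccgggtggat
KRTAP1-1: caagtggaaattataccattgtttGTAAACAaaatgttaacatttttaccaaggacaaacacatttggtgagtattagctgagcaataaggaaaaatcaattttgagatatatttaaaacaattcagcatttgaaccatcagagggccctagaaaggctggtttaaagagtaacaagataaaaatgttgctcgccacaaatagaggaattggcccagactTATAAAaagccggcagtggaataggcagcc
These stretches hold 1 CpG in KLK3, 2 in KLK2, 19 in SLC45A3, 20 in RPS9, 11 in PAX8 and 2 in KRTAP1-1. KLK3, called higher in LNCaP, thus has a CpG-poor promoter with a TATAAA match, unlike most genes called there, and PAX8 holds no match to any of the 4.

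In the 300 bases at GENCODE 5′ ends, TATAAA on either strand was found in 11% of all promoters, 11.7% of those called higher in Ishikawa and 7.64% of those called higher in LNCaP. GGGCGG was found in 52.4, 47 and 62.3%. ACCGGAAGT, bound by ETS factors and common at genes that every cell uses, was found in 1.29, 0.393 and 2.33%. AGAACA was found in 12.7, 13.4 and 11.1%, and TGTTTAC in 2.82, 3.11 and 2.24%. TGACTCA, the AP-1 site, was found in 4.00, 5.14 and 2.96%. For AGAACA and TGTTTAC the share among genes called in LNCaP was below that among all genes. Contact needs an anchor on the promoter, and GATC, the cut site, was present in 42.2, 42.4 and 42.9%.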

How the data were processed

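H3K27ac HiChIP loops of Ishikawa cells (4 samples) and LNCaP cells (2 samples) were analysed; the T-47D list was not used here. The authors aligned reads to hg19 with HiC-Pro, called loops with hichipper, removed loops under 3 read pairs or with a false discovery rate of 0.05 or more, and combined the samples of a line. The deposited values are counts of read pairs per loop, not scaled for depth. Groups were taken from the labels.

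From these, autosomal loops between different anchors with spans of 5 kb to 2 Mb were kept and Ishikawa rows of the same anchor pair were summed. Start sites came from GENCODE 44 lifted to GRCh37. Read pairs per gene were scaled to read pairs per 1000000 (1035188 in Ishikawa, 1777734 in LNCaP), and 1 was added before log2. Partners were called shared where the anchors overlapped by 1 base. Each line gives 1 list, so p-values cannot be had; ratios carry exact 95% intervals and shares Wilson intervals, for counting error only. Genes were named by rule: the 10 largest differences in each direction outside chromosomes 3, 10 and 12 with 20 or more read pairs in the higher list, 3 in each direction on those chromosomes, the 5 outside them with the highest similar contact (difference under 0.5), and members of gene lists. The members and lists were chosen with earlier results of these data known, and 5 gene family lists after the values were seen. Some list members are not reported singly here.

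Printed promoters came from RefSeq; CpG and motifs were counted on GRCh37 for all 19229 genes. All anchor edges lay within 4 bases of a GATC site. On simulated lists with 100 genes raised 8-fold and 100 lowered, all were called, as were 1.71% of 9282 unchanged genes. Both simulated lists were drawn from the LNCaP loops with the same anchors, and the changed genes were picked among those with many read pairs. In the real lists 18.5% of Ishikawa anchors overlapped an LNCaP anchor. The simulation thus checks the calculation and gives no rate of false calls between the lines. Alternatives were tried for scaling, pseudocount, minimum read pairs, window, start site, span, anchor width, partners and parts of the list. Python 3.11.15, pandas 2.3.3, numpy 2.4.6 and scipy 1.17.1 were used.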

Additional observations from a re-analysis of the deposited data

How the results depend on the processing

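No paired analysis was possible because each line's samples are combined in 1 list and the columns carry no replicate numbers. Each list rests on counts of 3 or more read pairs, so weaker contacts are not seen in either line. With LNCaP thinned to the Ishikawa total, 3471 genes were called higher in Ishikawa and 5055 in LNCaP. The limit of 3 was applied once to the thinned list and not within parts. This setting thus does not match how the Ishikawa list was made. Of 3205 single gene values over 143 genes and 23 alternatives, 1843 stayed within counting error and 1346 moved beyond it. The other 16 changed sign, which was counted only for genes called in the main setting. Of 643 medians over 28 gene lists, 617 stayed within an interval set by the spread of the list's own members, and 26 moved beyond it. This interval is wide for short lists, and in a list of 5 genes it runs from the lowest to the highest member. The Müllerian median, for example, counted as stayed when subtraction of the local difference took it from 3.65 to 1.21. The 617 are thus no measure of how stable the medians were. The causes of the changes below were not tested unless the setting itself (fewer loops, start sites or genes) gives them.

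Leaving out each Ishikawa part in turn gave 2770 to 3265 genes called higher in Ishikawa and 5534 to 5937 in LNCaP. Requiring 30 or more read pairs in the higher list gave 2042 genes higher in Ishikawa (1397 outside chromosomes 3, 10 and 12), and 1 start site per gene gave 2163 (1612 outside) and 25.8% of calls. Promoter anchors of a single gene left 14469 genes, with 3282 called higher in LNCaP (2946 outside), 4975 in contact in both lists and 2862 sharing a partner. Genes with contact in LNCaP only numbered 4762 with loops of 5 or more read pairs, 5351 with 10 or more (when 3037 had contact in both) and 5716 with Ishikawa loops seen in 2 or more parts. Genes sharing a partner numbered 2839, 1291 and 2835 in those settings, 2707 when partners held no promoter and 2860 with overlap of 50%.

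With loops of 10 or more read pairs the median was 4.87 for HOXA, 8.71 for HOXB, -5.55 for ribosomal proteins and -0.83 for zinc finger genes of chromosome 19. Scaling to an equal median gave 4.27 for HOXA and -2.19 for ribosomal proteins. The zinc finger median was -1.70 and -3.27 with pseudocounts of 5 and 0.5, -3.61 with loops in 2 or more parts (G1 genes -2.98), -3.42 at spans of 20 kb to 1 Mb, and 0 with partners without a promoter (ribosomal proteins -2.36, histones -3.13). Histones were at 0 with anchors of a single gene. Alternatives chosen after seeing the data were these: after subtraction of the local loop difference (median -0.76 over all genes), medians were -0.49 for mesenchymal, -5.89 for HOXD, -3.02 for G1, 5.64 for neuronal, 0.40 for olfactory receptor, -3.34 for histone, 0.81 for protocadherin, -2.19 for zinc finger and -0.50 for keratin-associated genes; with anchors of 4 kb, 0 for prostate luminal genes and -3.39 for histones; scaled by promoter read pairs alone, 44.5% of calls went to Ishikawa.

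Single genes called in the main setting changed sign as follows. With 1 start site per gene, PIAS1 was at -3.48, KLK4 at 4.76, HOXC9 at 4.54 and PPARA at -1.43. After subtraction of the local difference, VDR was at -0.95, HOXD9 at -0.53, RPL10L at -3.15, ZEB2 at -3.75 and CDH2 at -0.49. With anchors of 4 kb, GRHL2 was at 4.71, EHF at 6.02, KLK3 at 2.76, STEAP2 at 4.48, KLK4 at 4.76, SOX9 at -2.13 and PPARA at -1.43.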
